A study of Mus musculus with 10 samples.

Results

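IGKV14-126 is 1 of the 103 *Igkv* gene segments found in 6 sequenced *Igk* repertoires of sorted mouse B cells, and every clonotype listed with this V gene alone was taken as a member. That gave 1082 of the 44103 clonotypes in the 6 tables, all on 1 allele. A clonotype is a rearrangement with its V gene, J gene and CDR3 amino acid sequence, given with its number of reads. Libraries were amplified from genomic DNA of cells sorted from the peritoneal cavity of C57BL/6 mice aged 6 to 8 weeks, with 2 libraries from independent experiments in each group. The groups were wild-type (WT) B-1a cells, *Igll1*-/- B-1a cells and WT B-2 cells, with B-1a cells sorted as B220lo CD5+. The *Igll1* knockout removes λ5, a component of the surrogate light chain (SLC), which forms the pre-BCR together with a newly made heavy chain. WT B-1a cells served as the genotype control and WT B-2 cells as the conventional B-cell control. The labels do not say whether cells of several mice were pooled. Neither the sort markers nor the deleted gene can be seen in *Igk* amplicons, so the labels could not be checked this way.

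B-1a cells carry a restricted set of antigen receptors, many of them directed at self-antigens such as phosphatidylcholine (PtC), a phospholipid of cell membranes. A well-known PtC-binding receptor pairs the VH11 heavy chain, encoded by IGHV11-2, with the light chain of IGKV14-126, and another pairs VH12 with Vκ4, encoded by IGKV4-91. A κ light chain needs a single joining event between a Vκ and a Jκ segment, and the CDR3 covers that junction. *Igh* and *Igk* amplicons came from different libraries, so the pairing itself was not measured. IMGT lists the gene as functional, whereas the RefSeq annotation (GRCm38.p6) lists Igkv14-126 on chromosome 6 as a V segment pseudogene, between Igkv14-126-1 and Igkv11-125.

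The CDR3s of IGKV14-126 were close to uniform, and the sequences below carry most of its reads. They share the start LQHGESP, and the residue before the final T differs with the Jκ segment. They are called the core clonotypes, and each is named by its Jκ gene.

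IGKJ2 core: LQHGESPYT

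IGKJ5 core: LQHGESPLT

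IGKJ1 core: LQHGESPWT

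IGKJ4 core: LQHGESPFT

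All 4 have 9 residues and were found in all 6 libraries. The IGKJ1, IGKJ2 and IGKJ5 cores were at 100% identity to the amplified part of the germline V gene. The exception was 1 single-read entry of the IGKJ2 core at 99.1%. Products were 100 to 280 bp long, so the rest of the V gene was not read. The 4 core clonotypes together held 89.7% and 88.4% of the IGKV14-126 reads in WT B-1a libraries, 92.0% and 84.0% in *Igll1*-/- B-1a libraries, and 77.4% and 75.6% in WT B-2 libraries. The core took a smaller part of IGKV14-126 in both WT B-2 libraries than in any B-1a library. With 2 libraries against 2, an exact permutation test cannot go below p = 0.333, and that was the value for WT B-1a against WT B-2.

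IGKV14-126 was frequent in WT B-1a cells, less so in WT B-2 cells, and lowest in *Igll1*-/- B-1a cells. It made up 4.89% (95% Wilson interval 4.42 to 5.42) and 5.29% (4.78 to 5.84) of the clonotypes in the WT B-1a libraries, as 354 and 368 clonotypes. In *Igll1*-/- B-1a libraries the share was 0.684% (0.501 to 0.934) and 0.735% (0.559 to 0.965), as 39 and 51 clonotypes. WT B-2 libraries held 1.65% (1.40 to 1.94) and 1.47% (1.24 to 1.75), as 143 and 127 clonotypes. The groups did not overlap, and by this count the gene ranked 3rd and 2nd among all V genes in WT B-1a cells, 35th and 38th in *Igll1*-/- B-1a cells, and 14th and 22nd in WT B-2 cells. The intervals cover counting error only, since PCR reads without molecular barcodes are not independent molecules, and more cells and more amplification cannot be told apart.

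The share of clonotypes was then tested for 84 *Igkv* genes in 1 fit over the 6 libraries (quasi-likelihood F-test of edgeR, p-values adjusted over all genes by Benjamini-Hochberg). In WT B-1a cells it was 1.70 ± 0.20 higher on the log2 scale (fold change ± standard error, edgeR adjusted p = 0.000169) than in WT B-2 cells, 1 of 3 genes that passed the threshold of 0.05 in this comparison, or 3.57% of those tested. *Igll1*-/- B-1a cells lay below WT B-1a cells by −2.84 ± 0.22 (edgeR adjusted p = 4.03e-06), the largest change and the smallest p-value of the 84 genes, where 17.9% passed. *Igll1*-/- B-1a cells also lay below WT B-2 cells, by −1.14 ± 0.22 (edgeR adjusted p = 0.00304), a comparison in which 22.6% of the genes passed. This last difference did not pass with TMM scaling (−0.67, edgeR adjusted p = 0.0717), with DESeq2 (−0.61, DESeq2 adjusted p = 0.0936), in clonotypes of at least 10 reads (−0.84, edgeR adjusted p = 0.23), or without WT B-2 replicate 1 (−1.05, edgeR adjusted p = 0.0686). Without WT B-1a replicate 2, the difference between WT B-1a and WT B-2 cells was 1.65 (edgeR adjusted p = 0.0554).

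**Figure D1:**
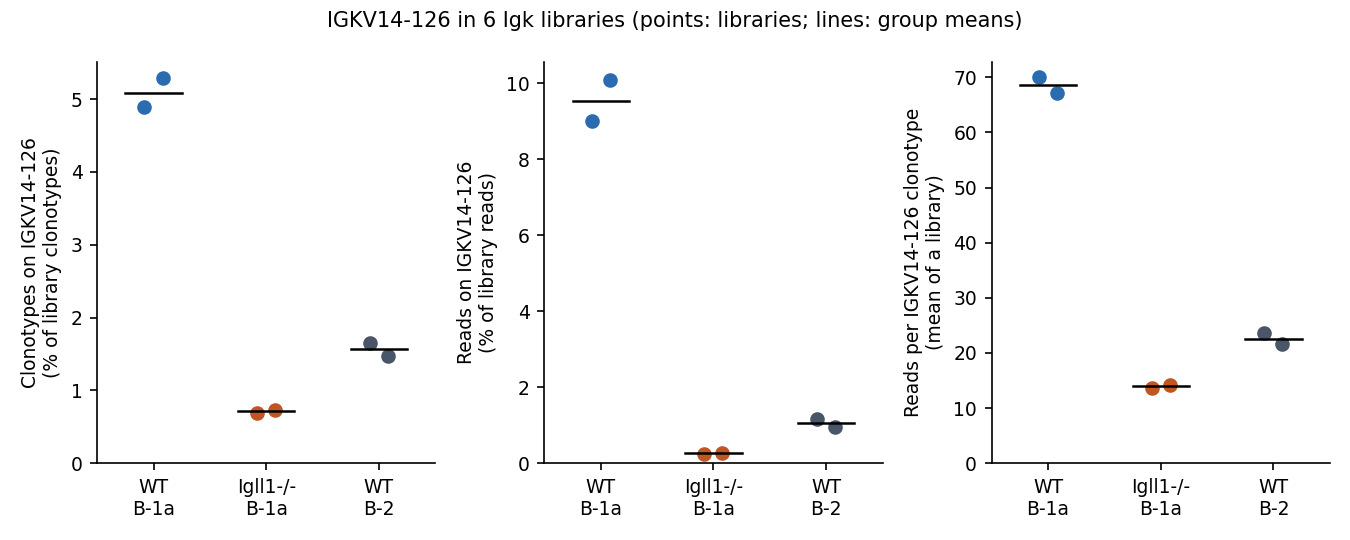
Percent of clonotypes, percent of reads and mean reads per clonotype of IGKV14-126 in each library (points), with the group mean as a line, for WT B-1a, *Igll1*-/- B-1a and WT B-2 cells. WT B-1a libraries stand highest in all 3 panels, at 4.89% and 5.29% of clonotypes, and *Igll1*-/- B-1a libraries lowest, at 0.684% and 0.735%.

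Counting reads widened these differences. IGKV14-126 took 24802 and 24715 reads in WT B-1a cells, or 9.02% and 10.1% of the library. It took 535 and 727 reads in *Igll1*-/- B-1a cells, or 0.25% and 0.265%, and 3366 and 2742 reads in WT B-2 cells, or 1.17% and 0.951%. The mean share of reads in WT B-1a cells was 37.1-fold that in *Igll1*-/- B-1a cells and 9.02-fold that in WT B-2 cells, while for clonotypes the ratios were 7.17-fold and 3.25-fold. With reads in place of clonotypes, the log2 fold changes were −5.21 for *Igll1*-/- against WT B-1a cells (edgeR adjusted p = 0.000183), 3.17 for WT B-1a against WT B-2 cells (edgeR adjusted p = 0.00242) and −2.04 for *Igll1*-/- B-1a against WT B-2 cells (edgeR adjusted p = 0.00677).

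Clonotypes of this gene held more reads than those of other V genes in WT B-1a cells, and fewer in the other groups. An IGKV14-126 clonotype held 70.1 and 67.2 reads on average there, against 36.2 and 32.8 for the clonotypes of all other V genes in the same libraries. In *Igll1*-/- B-1a cells it held 13.7 and 14.3 reads against 37.8 and 40.2. WT B-2 libraries gave 23.5 and 21.6 reads against 32.8 and 32.6. The median clonotype held 1 read in every library, and single-read clonotypes made up 58.3% to 79.5% of the gene's clonotypes, so the means rest on a few large ones. Clonotypes with at least 10 reads numbered 58 and 62 in WT B-1a libraries, 3 and 5 in *Igll1*-/- B-1a libraries, and 12 in each WT B-2 library.

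The largest of these was the IGKJ2 core, LQHGESPYT. It held 18300 and 17325 reads in WT B-1a cells, or 6.65% and 7.07% of the whole library, and was the second largest *Igk* clonotype of replicate 1 and the largest of replicate 2. It held 123 and 138 reads in *Igll1*-/- B-1a cells, or 0.0575% and 0.0503%, and 1025 and 914 reads in WT B-2 cells, or 0.355% and 0.317%. No library of one group overlapped with another group. Among 1323 clonotypes tested by reads in the 6 libraries, LQHGESPYT was the only one to pass in *Igll1*-/- against WT B-1a cells (−6.99 ± 0.43 on the log2 scale, edgeR adjusted p = 0.00282) and the only one in WT B-1a against WT B-2 cells (4.35 ± 0.38, edgeR adjusted p = 0.0242), 0.0756% of the clonotypes tested in each case. Neither call held without 1 of the WT B-1a libraries, where the edgeR adjusted p was 0.0735 and 0.105 for the former comparison and 0.415 and 0.321 for the latter. The call against WT B-2 cells was also lost without either WT B-2 library (edgeR adjusted p = 0.928 and 0.964). Against WT B-2 cells, *Igll1*-/- B-1a cells differed by −2.64 ± 0.35 (edgeR adjusted p = 0.115), where 0 of 1323 clonotypes passed by edgeR. In that comparison 371 of the 1323 had an unadjusted p under 0.05 and 313, or 23.7%, passed by DESeq2, which called 21.2% in *Igll1*-/- against WT B-1a cells and 9.22% in WT B-1a against WT B-2 cells. Of the 56 IGKV14-126 clonotypes tested, 47 reached the minimum of 10 reads in the WT B-1a libraries and in no other, so no count over them is given as a result.

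The IGKJ5 core, LQHGESPLT, behaved differently. It held 1126 and 1930 reads in WT B-1a cells (0.409% and 0.788% of the library), 297 and 212 in *Igll1*-/- B-1a cells (0.139% and 0.0773%), and 1265 and 916 in WT B-2 cells (0.439% and 0.318%). WT B-1a and WT B-2 libraries overlapped, at a log2 difference of 0.66 ± 0.64 (edgeR adjusted p = 0.686), while both *Igll1*-/- libraries lay below all 4 WT libraries, by −2.47 ± 0.67 against WT B-1a cells (edgeR adjusted p = 0.128). This was the largest IGKV14-126 clonotype in *Igll1*-/- replicate 1 and in both WT B-2 libraries.

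The IGKJ1 core, LQHGESPWT, held 2621 and 2341 reads in WT B-1a cells (0.953% and 0.955%), 70 and 260 in *Igll1*-/- B-1a cells (0.0327% and 0.0948%), and 283 and 233 in WT B-2 cells (0.0981% and 0.0808%). Here *Igll1*-/- B-1a and WT B-2 libraries overlapped and WT B-1a libraries stood apart. The IGKJ4 core, LQHGESPFT, held few reads, at 203 and 263 in WT B-1a cells. It held 2 and 1 in *Igll1*-/- B-1a cells, and 32 and 11 in WT B-2 cells. By edgeR neither passed in any comparison.

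**Figure D2:**
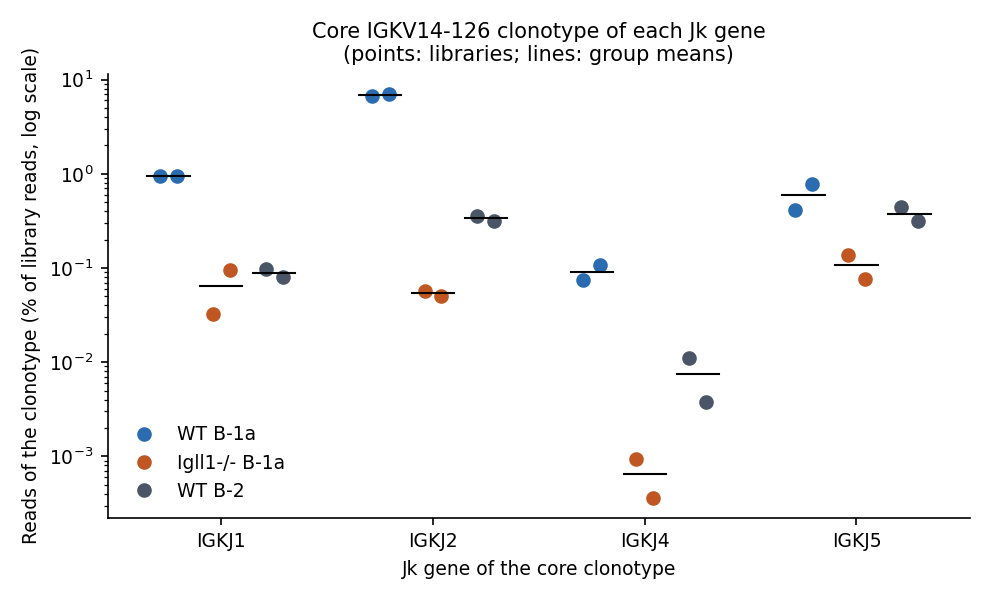
Reads of the core IGKV14-126 clonotype of each Jκ gene as a percent of library reads on a log axis, one point per library with the group mean as a line. The IGKJ2 core reaches 6.65% and 7.07% in WT B-1a cells and 0.0575% and 0.0503% in *Igll1*-/- B-1a cells, while the IGKJ5 core overlaps between WT B-1a and WT B-2 cells.

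By reads, the use of IGKJ2 and IGKJ5 separated WT B-1a cells from the other groups. In WT B-1a cells the IGKJ2 share was largely that of its core, which alone held 73.8% and 70.1% of all IGKV14-126 reads. Of the IGKV14-126 reads whose CDR3 holds no stop codon, IGKJ2 took 81.8% and 78.5% in WT B-1a libraries, 24.7% and 22.5% in *Igll1*-/- B-1a libraries, and 38.3% and 37.3% in WT B-2 libraries. IGKJ5 took 5.21% and 9.90% in WT B-1a cells, 60.9% and 34.2% in *Igll1*-/- B-1a cells, and 47.6% and 47.0% in WT B-2 cells. IGKJ1 took 12.1% and 10.6% in WT B-1a cells, 13.1% and 15.3% in WT B-2 cells, and 14.0% and 43.3% in *Igll1*-/- B-1a cells. The IGKJ2 share was higher in both WT B-1a libraries than in any other, and lower in both *Igll1*-/- B-1a libraries than in WT B-2 cells, each with p = 0.333 by an exact permutation test. Counting only clonotypes marked productive, IGKJ2 took 5.77% in WT B-2 replicate 2, where the mark of the IGKJ2 core differs, and *Igll1*-/- B-1a and WT B-2 libraries then overlapped. On all other V genes, the IGKJ2 share of reads lay between 15.8% and 20.5% in the 6 libraries. That was below its share on IGKV14-126 in every library. How far primers and product size set these Jκ levels was not tested.

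**Figure D3:**
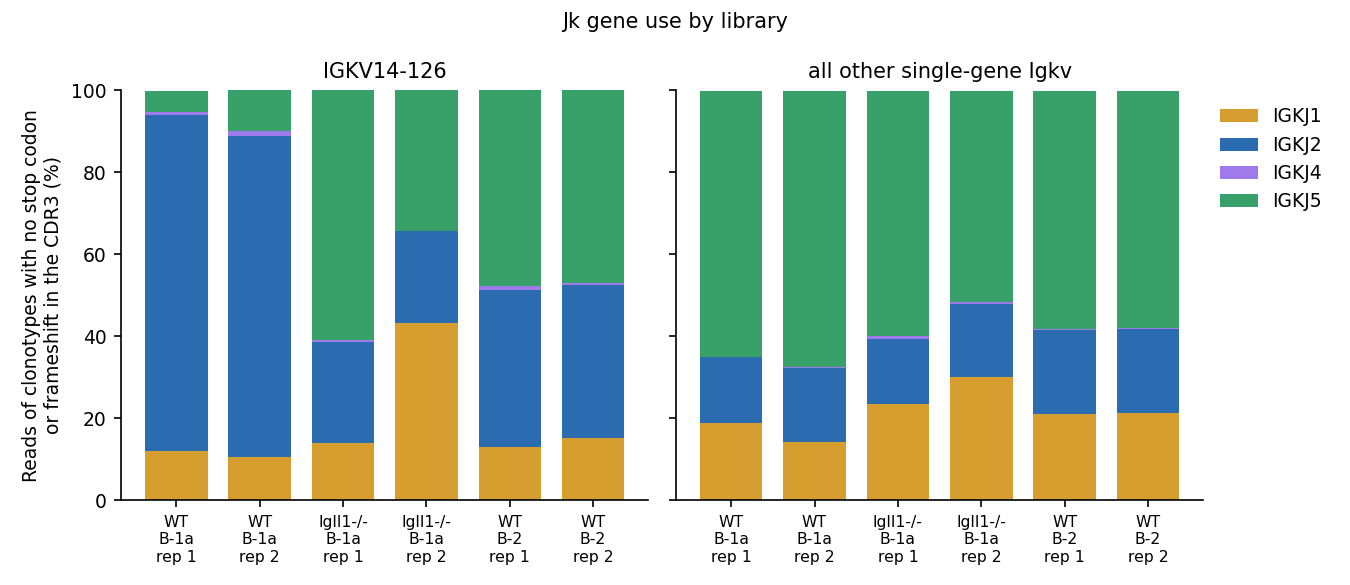
Jκ use in percent of reads for IGKV14-126 (left) and for all other V genes (right) in each library, counting clonotypes with no stop codon or frameshift in the CDR3. IGKJ2 fills 81.8% and 78.5% of IGKV14-126 reads in WT B-1a cells, whereas on the other V genes IGKJ5 leads in every library.

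Counted as clonotypes, IGKV14-126 with IGKJ2 numbered 206 and 204 in WT B-1a libraries, 10 and 11 in *Igll1*-/- B-1a libraries, and 56 and 43 in WT B-2 libraries. With IGKJ5 the numbers were 64 and 86, 22 and 26, and 61 and 62 in the same order. With IGKJ1 they were 74 and 72, 6 and 13, and 23 and 21. The pair with IGKJ4 had 1 to 9 clonotypes in a library and was too rare to be tested. Of 202 V-J pairs tested together, the IGKJ2 pair had the largest change of all in *Igll1*-/- against WT B-1a cells, −4.10 ± 0.31 on the log2 scale (edgeR adjusted p = 3.04e-05). The IGKJ1 pair had −2.78 ± 0.43 (edgeR adjusted p = 0.00396) and the IGKJ5 pair −1.48 ± 0.33 (edgeR adjusted p = 0.0158). All 3 are parts of 1 gene that was itself lower, so they do not count as separate results. Of all pairs, 10.4% passed in either direction. In WT B-1a against WT B-2 cells, the IGKJ2 pair was higher by 2.33 ± 0.27 (edgeR adjusted p = 0.00127) and the IGKJ1 pair by 2.01 ± 0.40 (edgeR adjusted p = 0.0204), whereas the IGKJ5 pair had 0.57 ± 0.31 (edgeR adjusted p = 0.332). In that comparison 2.97% of all pairs passed. Of the 3 pairs, only that with IGKJ2 passed in *Igll1*-/- B-1a against WT B-2 cells, at −1.77 ± 0.32 (edgeR adjusted p = 0.0114), where 12.4% of all pairs passed. Whether the Jκ pairs differ from each other in these changes was not tested. The counts include small variants near the core clonotypes. Merging, described below, removed 70.9% and 72.3% of the gene's clonotypes in WT B-1a libraries. It removed 59.0% and 60.8% in *Igll1*-/- B-1a libraries, and 65.0% and 59.8% in WT B-2 libraries. V-J pairs were not tested on merged counts. The pair with IGKJ1 no longer passed against WT B-2 cells by reads, with the replicate block (edgeR adjusted p = 0.0779) or without any one WT library, and the IGKJ1 and IGKJ5 pairs did not pass in *Igll1*-/- against WT B-1a cells without either WT B-1a library (largest edgeR adjusted p = 0.102 and 0.125). The IGKJ2 pair did not pass in WT B-1a against WT B-2 cells without WT B-1a replicate 1 (edgeR adjusted p = 0.134) or replicate 2 (edgeR adjusted p = 0.0747), nor in *Igll1*-/- B-1a against WT B-2 cells without either WT B-2 library (largest edgeR adjusted p = 0.152).

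Beyond the core, more IGKV14-126 reads lay on clonotypes 1 residue from it than on more distant ones, which held 0.871% and 0.931% of the reads in WT B-1a cells, 2.43% and 2.75% in *Igll1*-/- B-1a cells, and 3.98% and 3.50% in WT B-2 cells. Clonotypes 1 residue from a core CDR3 made up 40.1% and 42.7% of the gene's clonotypes in WT B-1a cells, 59.0% and 56.9% in *Igll1*-/- B-1a cells, and 51.0% and 46.5% in WT B-2 cells. For every 100 reads of core CDR3s they held 9.67 and 11.4 reads in WT B-1a cells, 5.88 and 15.3 in *Igll1*-/- B-1a cells, and 23.6 and 26.8 in WT B-2 cells, so both WT B-2 libraries lay above the others. After clonotypes within 1 residue of one with at least 10 times their reads had been merged into it, IGKV14-126 kept 103 and 102 clonotypes in WT B-1a libraries, 16 and 20 in *Igll1*-/- B-1a libraries, and 50 and 51 in WT B-2 libraries. Its share of merged clonotypes was 3.93% ± 0.04 (SD, n = 2) in WT B-1a cells, 0.792% ± 0.018 (SD, n = 2) in *Igll1*-/- B-1a cells and, in WT B-2 cells, 1.68% ± 0.03 (SD, n = 2), and all 3 differences passed on these counts. How many of the small variants arose in PCR or sequencing was not tested.

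Several variants stood out by their reads. LQHGESPPT on IGKJ5, with proline before the final T, held 195 and 141 reads in WT B-2 cells, 9 and 266 in WT B-1a cells, and 2 and 5 in *Igll1*-/- B-1a cells. LQHGESPRT on IGKJ1, with arginine there, held 128 and 108 reads in WT B-2 cells, 77 and 38 in WT B-1a cells, and 0 and 38 in *Igll1*-/- B-1a cells. Both were at 100% identity to the amplified part of the germline V gene in every library that held them. Neither passed by edgeR in any comparison. For LQHGESPRT both WT B-2 libraries lay above all others, and for LQHGESPPT the WT B-1a libraries lay on either side of them.

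By reads, CDR3 length was nearly fixed at 9 residues in WT B-1a cells, where the core clonotypes, all of that length, held most reads. CDR3s of 9 residues held 99.9% of IGKV14-126 reads without a stop codon in both WT B-1a libraries. They held 99.6% and 97.8% in *Igll1*-/- B-1a libraries, and 95.6% and 93.7% in WT B-2 libraries. By clonotypes they made up 94.9% and 96.2%, 94.9% and 92.0%, and 84.7% and 90.0% in the same order. On other V genes, 9-residue CDR3s held 83.8% to 87.5% of reads. CDR3s of 10 residues held 0.0162% and 0.00813% of the reads in WT B-1a cells, 0.374% and 1.93% in *Igll1*-/- B-1a cells, and 3.51% and 5.63% in WT B-2 cells. On the other V genes, 10-residue CDR3s held 3.87% to 5.93% of reads in the 6 libraries. Within WT B-2 libraries the share on other V genes was 5.93% and 5.05%, and within WT B-1a libraries 4.86% and 4.90%. The 5 such clonotypes with at least 10 reads in all are shown because each was found mainly in 1 group.

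IGKJ5, with 2 and 132 reads in WT B-2 cells: LQHGESPPLT

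IGKJ2, with 51 and 14 reads in WT B-2 cells: LQHGESLMYT

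IGKJ2, with 45 and 0 reads in WT B-2 cells: LQHGESPMYT

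IGKJ2, with 12 and 0 reads in WT B-2 cells: LQHGESPPYT

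IGKJ2, with 0 and 13 reads in *Igll1*-/- B-1a cells: LQHGESPQYT

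In WT B-1a libraries these had 0 or 1 read each.

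Sharing between libraries depended on clone size. Over CDR3s marked productive in at least 1 library, which keeps the IGKJ2 core of WT B-2 replicate 2 described further on, 641 distinct IGKV14-126 clonotypes were seen, of which 457 were found in 1 library only and 9 in all 6. Those 9 held 90.3% of the gene's reads in WT B-1a cells, 89.8% in *Igll1*-/- B-1a cells and 82.8% in WT B-2 cells. Of the clonotypes of a WT B-1a library, 42.9% and 41.5% recurred in the other WT B-1a library, close to the 40.9% and 42.5% of other V genes. Among clonotypes with at least 10 reads, 88.9% and 82.8% recurred, against 62.6% and 64.1% for other V genes. All IGKV14-126 clonotypes of that size in WT B-1a cells had a core CDR3 or were 1 residue from one. How many of them were separate rearrangements was not tested. In WT B-2 cells, at that size, 66.7% recurred in both directions, against 64.9% and 63.9%. *Igll1*-/- B-1a libraries had 3 and 5 clonotypes of that size, of which 3 were shared.

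**Figure D4:**
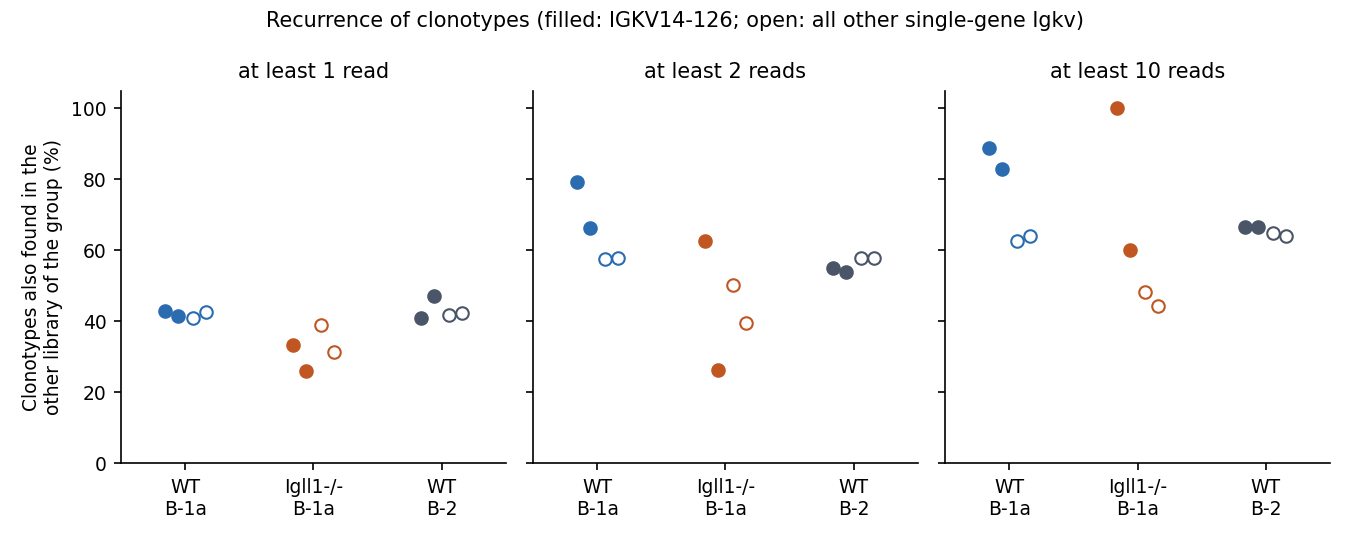
Percent of the clonotypes of a library, among those marked productive in at least 1 of the 6 libraries, also found in the other library of its group, for IGKV14-126 (filled) and all other V genes (open), at minimum sizes of 1, 2 and 10 reads in both libraries. IGKV14-126 and other V genes sit together at 1 read, and in WT B-1a cells IGKV14-126 rises to 88.9% and 82.8% at 10 reads. At that size, all its WT B-1a clonotypes had a core CDR3 or were 1 residue from one.

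Across groups the sharing was uneven. At 10 or more reads, 74 of these clonotypes were seen, and 57 of them reached that size in WT B-1a cells only, 9 in WT B-2 cells only, 1 in *Igll1*-/- B-1a cells only, 4 in all groups and 3 in both WT groups. Of the 57, 7 had a core CDR3 listed with another Jκ gene and 50 were 1 residue from the core. The gene held 24802 and 24715 reads in WT B-1a libraries but 535 and 727 in *Igll1*-/- B-1a libraries. A variant could thus reach that size more readily in WT B-1a cells, and these counts are no support for a difference between groups. Of the WT B-1a clonotypes of that size, 7.41% and 6.90% were found at that size in *Igll1*-/- B-1a cells, against 57.7% in both libraries for other V genes, and 11.1% and 10.3% in WT B-2 cells, against 73.4% and 74.8%. The 4 found in all groups, which were the IGKJ1, IGKJ2 and IGKJ5 cores and LQHGESPRT, held 90.5% of the reads of such clonotypes in WT B-1a cells, 99.0% in *Igll1*-/- B-1a cells and 85.8% in WT B-2 cells. Counting every clonotype, 74.4% and 66.0% of those of an *Igll1*-/- B-1a library were found in WT B-1a cells, where other V genes gave 46.7% and 43.4%, and 69.2% and 62.0% in WT B-2 cells, where they gave 52.3% and 47.4%. In the other direction, 13.0% and 14.6% of WT B-1a clonotypes were found in *Igll1*-/- B-1a cells, and 43.4% and 46.0% for other V genes. The groups differ in their number of clonotypes and in their reads on this gene, and these shares move with both.

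Most listed IGKV14-126 clonotypes were productive. No CDR3 of the gene carried a frameshift sign in any library, so these are shares of listed clonotypes and not of all rearrangements. Productive clonotypes made up 91.8% and 91.3% of the gene in WT B-1a cells. They made up 100% and 98.0% in *Igll1*-/- B-1a cells, and 95.8% and 92.9% in WT B-2 cells. The *Igll1*-/- shares rest on 39 and 51 clonotypes, with 95% Wilson intervals of 91.0 to 100 and 89.7 to 99.7. These overlap the intervals of the WT B-1a libraries, 88.5 to 94.2 and 88.0 to 93.8. *Igll1*-/- B-1a cells exceeded WT B-1a cells by 7.46 percentage points and WT B-2 cells by 4.66, and WT B-1a cells differed from WT B-2 cells by −2.80, each with p = 0.333 by a two-sided exact permutation test. The last of these was −1.36 without WT B-2 replicate 1 and −4.25 without WT B-2 replicate 2. Other V genes were productive in 85.6% to 88.1% of their clonotypes. Unproductive IGKV14-126 clonotypes numbered 29 and 32 in WT B-1a libraries, 0 and 1 in *Igll1*-/- B-1a libraries, and 6 and 9 in WT B-2 libraries. In *Igll1*-/- replicate 1 that is 0 of 755 unproductive clonotypes, which allows a share of up to 0.397%, or 3 counts of 755. Of those with a stop codon in the CDR3, 7 of 20 and 7 of 22 in WT B-1a cells, 1 of 1 in *Igll1*-/- B-1a cells, and 3 of 6 and 4 of 7 in WT B-2 cells lay 1 residue from a core CDR3. The largest of them in WT B-1a cells, L*HGESPYT on IGKJ2, held 41 and 43 reads there, 2 and 0 in WT B-2 cells, and 0 in both *Igll1*-/- B-1a libraries. L*HGESPLT on IGKJ5 held 0 to 3 reads in a library. In WT B-2 replicate 2 the deposited table marks the IGKJ2 core, with 914 reads, as unproductive although its CDR3 holds no stop codon, and in the other 5 libraries the same clonotype is marked productive. The productive share of reads was 66.3% in that library and 99.5% to 100% in the others. For this reason Jκ use and CDR3 length are given for all CDR3s without a stop codon, and sharing for CDR3s marked productive in any library. Counting productive reads instead, IGKV14-126 took 9.41% and 10.5% of them in WT B-1a cells, 0.257% and 0.268% in *Igll1*-/- B-1a cells, and 1.19% and 0.648% in WT B-2 cells, and the differences in means were −9.70 percentage points for *Igll1*-/- against WT B-1a cells, 9.05 for WT B-1a against WT B-2 cells and −0.656 for *Igll1*-/- B-1a against WT B-2 cells, each with p = 0.333 by an exact permutation test. This last difference was −0.385 without WT B-2 replicate 1 and −0.927 without WT B-2 replicate 2.

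Among other V genes, the pattern over the 6 libraries most like that of IGKV14-126 was that of IGKV9-128, with Pearson's r of 0.991 on log2 percent of clonotypes, given as a description of 6 libraries that share their primers. IGKV9-128 made up 3.61% and 4.39% of clonotypes in WT B-1a cells, 0.684% and 0.879% in *Igll1*-/- B-1a cells, and 1.53% and 1.67% in WT B-2 cells, and 98.4% of its clonotypes were unproductive. It was followed by IGKV12-89 (0.979), IGKV3-5 (0.942), IGKV7-33 (0.887) and IGKV6-15 (0.872). Of 12 tested genes within 10 locus numbers of IGKV14-126, IGKV9-128 and IGKV1-122 passed in *Igll1*-/- against WT B-1a cells, both lower as were 9.52% of all genes, with log2 fold changes of −2.35 each (edgeR adjusted p = 5.63e-05 and 0.0195). IGKV9-128 alone passed in WT B-1a against WT B-2 cells, at 1.32 (edgeR adjusted p = 0.00428), and the same pair was lower in *Igll1*-/- B-1a than in WT B-2 cells, where 15.5% of all genes were. Without 1 library of the groups compared, edgeR adjusted p rose to 0.168 for IGKV1-122 against WT B-1a cells, and IGKV9-128 did not pass between WT B-1a and WT B-2 cells (0.0741 to 0.159). Against WT B-2 cells, neither passed in *Igll1*-/- B-1a cells with TMM (edgeR adjusted p = 0.112 and 0.143). The median of the 12 was −0.25 in *Igll1*-/- against WT B-1a cells, beside −0.17 for all 84 genes. Of the 3 other IGKV14 genes tested, IGKV14-111 passed, higher in *Igll1*-/- than in WT B-1a cells by 0.81 (edgeR adjusted p = 0.0264), opposite to IGKV14-126, and 8.33% of all genes were higher there. This call was lost without either WT B-1a library (edgeR adjusted p = 0.168 and 0.11).

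IGKV4-91, the light chain of VH12, made up 6.54% and 6.03% of clonotypes in WT B-1a cells, 2.77% and 3.17% in *Igll1*-/- B-1a cells, and 1.44% and 1.30% in WT B-2 cells. *Igll1*-/- B-1a cells thus lay above WT B-2 cells for IGKV4-91, by 1.11 on the log2 scale (edgeR adjusted p = 0.000658), as 7.14% of all genes did, and below them for IGKV14-126. By reads, the former was 1.02 (edgeR adjusted p = 0.0833). The heavy chain partner IGHV11-2 held 20.6% and 24.4% of *Igh* reads in WT B-1a cells and 0.492% and 0.703% in *Igll1*-/- B-1a cells. It made up 2.99% and 4.79% of *Igh* clonotypes in the former and 0.821% and 0.960% in the latter, and no *Igh* library of WT B-2 cells was analysed here.

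The 6 libraries held 5701 to 8652 clonotypes and 214000 to 288396 reads, and 3 clonotypes of a library correspond to a share of 0.0347% to 0.0526%. The replicates of each group differed by more than sampling noise (chi-square over V genes, 164 to 780 on 101 or 102 degrees of freedom), and all were kept as separate libraries, as labelled. Library names in the labels follow one scheme in WT replicate 1 of both cell types and another in the remaining libraries. Within the latter the share of IGKV14-126 was 5.29% in WT B-1a cells, 0.684% and 0.735% in *Igll1*-/- B-1a cells and 1.47% in WT B-2 cells. CDR3s with the start LQHGESP were also listed on other V genes, at 0.561 to 1.34 reads per 100 IGKV14-126 reads of a library.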

How the data were processed

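*Igk* and *Igh* rearrangements were amplified from genomic DNA of sorted peritoneal B cells, with a degenerate Vκ primer and added primers for segments favoured in B-1a cells, and products of 100 to 280 bp were kept. The authors assigned the reads with IMGT/HighV-QUEST against IMGT reference sequences and deposited a table per library with raw read counts per clonotype and the percent identity to the germline V gene. The labels name a MiSeq and the study's methods a HiSeq instrument. Primer efficiency enters each V gene's share, and how far it and the product size enter each Jκ gene's share was not tested. No barcode marks the original molecule. From 5701 to 8652 clonotypes per library, those on IGKV14-126 alone were taken, and rows that named it with another V gene (0 to 2 per library) stayed in the total only.

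Clonotypes per V gene and per V-J pair, and reads per clonotype, were tested with edgeR 4.0.16 (quasi-likelihood, R 4.3.3) over all features with at least 10 clonotypes or reads in at least 2 libraries, with library totals as size and Benjamini-Hochberg adjustment, as counts. DESeq2 1.42.0, TMM, merging, read minimums, a replicate block and leaving out each library were alternatives. The fits were also run on simulated data with a fixed spread between libraries that was not taken from these data. That run does not show how the fits perform at the spread seen here. Single values were compared with two-sided exact permutation tests (scipy 1.17.1). Since 1 experiment per library is all that the labels give, p-values measure only the spread between these libraries, which may be technical. The genes named were IGKV14-126, its V-J pairs, its 5 largest productive and 3 largest unproductive clonotypes, the 5 V genes most correlated with it, called genes within 10 locus numbers of it or of the IGKV14 family, IGKV4-91 and IGHV11-2. The 10-residue clonotypes and the IGKJ4 core were named after their values were seen. The gene and all lists were chosen with earlier results of these data known. In-frame counting was added after the functionality marks had been seen.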

Additional observations from a re-analysis of the deposited data

How the results depend on the processing

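The lower share of IGKV14-126 in *Igll1*-/- than in WT B-1a cells passed under every alternative run, with log2 fold changes of −2.89 to −2.78 when 1 library was left out. Without 1 library, the share ranged from 1.62 to 1.79 for WT B-1a against WT B-2 cells, and from −1.22 to −1.05 for *Igll1*-/- B-1a against WT B-2 cells. The latter did not pass at 10 reads (−0.84), with TMM (−0.67) or with DESeq2 (−0.61). The median change of all genes in that comparison was −0.49, and −0.03 with TMM and 0.05 with DESeq2, and the percent of calls that were higher was 31.6, 87.5 and 92.3. In *Igll1*-/- against WT B-1a cells that percent was 46.7, 62.5 and 63.2. *Igkv* genes called in *Igll1*-/- against WT B-1a cells numbered 15, against 8 in unproductive and 7 in merged clonotypes and 7 to 31 without 1 library. In WT B-1a against WT B-2 cells they numbered 3, against 5 at 2 reads, 6 merged, 5 without stop codons, 5 with DESeq2, 11 with no filter, and 1 to 2 without 1 library. In *Igll1*-/- B-1a against WT B-2 cells they numbered 19, against 10 at 10 reads, 8 unproductive, 9 merged, 8 with TMM, and 6 to 39 without 1 library. The V-J pairs called numbered 3, 2 and 1 in these comparisons, and 1, 1 and 0 at 10 reads. Without 1 library they numbered 1 to 3, 0 to 1 and 0 to 1. In WT B-1a against WT B-2 cells, 1 pair passed by reads and 1 with no filter. IGKV14-126 clonotypes called numbered 1, 1 and 0, and 32, 28 and 2 with DESeq2, which called 21.2%, 9.22% and 23.7% of all clonotypes tested. Since 47 of the 56 IGKV14-126 clonotypes tested met the minimum in the WT B-1a libraries alone, these counts are no support for a difference. At 2 reads in 2 libraries 0 of 3583 clonotypes passed in WT B-1a against WT B-2 cells by edgeR, and 474 of the 3583 had an unadjusted p under 0.05. At the main minimum and without 1 library, the log2 fold change of LQHGESPYT on IGKJ2 was −7.09 to −6.90 in *Igll1*-/- against WT B-1a cells. It was 4.27 to 4.44 in WT B-1a against WT B-2 cells, and −2.74 to −2.55 in *Igll1*-/- B-1a against WT B-2 cells. The difference in percent productive, *Igll1*-/- minus WT B-1a, was 7.46 and became 0.458 by reads, 4.86 at 2 reads, 9.28 merged and 4.83 without stop codons. By reads it was 16.4 for WT B-1a minus WT B-2, reversed from −2.80, and 16.9 for *Igll1*-/- minus WT B-2, where the 914 reads marked unproductive enter. Without the largest clonotype of each library the difference in percent of productive reads was −2.84 and 2.45. The IGKJ2 difference was 33.5 points by clonotypes. Recurrence in WT B-1a, *Igll1*-/- B-1a and WT B-2 cells was 72.8%, 44.4% and 54.4% at 2 reads and 85.8%, 80% and 66.7% at 10. Except where stated, the cause was not tested.

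Replicate numbers were not used to pair the libraries in the main fit. Correlations of same-numbered deviations over 84 V genes were 0.026, 0.014 and −0.21. With only 2 pairs, they cannot show whether libraries with the same number share an experiment. With the replicate block, the IGKV14-126 share gave −2.84, 1.70 and −1.14, all still passing. In WT B-1a against WT B-2 cells 8 *Igkv* genes passed in place of 3, and 1 V-J pair in place of 2.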

Other observations

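IGKV14-126 clonotypes with under 95% identity to the amplified part of the germline V gene numbered 69 and 73 in WT B-1a libraries. They numbered 12 and 15 in *Igll1*-/- B-1a libraries, and 35 and 24 in WT B-2 libraries. In that order, these clonotypes held 75 and 81, 14 and 19, and 36 and 27 reads. In the 6 libraries 20 clonotypes had a CDR3 of 42 to 57 residues, each with 1 read.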
